A study of Mus musculus with 6 samples.

Results

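Transcripts of MHC class II presentation and of the B cell lineage were read as 10 genes in RNA sequencing libraries of T cells cultured towards regulatory T cells. The genes were Cd74, H2-Aa, H2-Ab1 and Ciita of the class II route and Pax5, Ms4a1, Cd79a, Ebf1, Fcer2a and Igkc of the B lineage. They were taken by symbol from a table of 26469 genes, all 10 symbols were found, and each matched 1 row. They had been picked on their counts in these same 6 libraries, as a reading of B cell material left in a T cell culture, so their own levels and group differences are given as a description without a test.

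Naive CD4+ T cells from mouse spleen were held for 36 h with TGF-β (5 ng/ml), hamster antibodies to CD3 and CD28, and antibodies that block IL-4 and IFNγ. In both groups the cells carried the conditional Sf3b1 K700E allele (Sf3b1K700E/fl), K700E being a change of the splicing factor SF3B1 found in cancers. The 3 control libraries came from mice without Cd4Cre and are annotated WT. The 3 mutant libraries came from mice with Cd4Cre, a recombinase driven by the Cd4 gene and thus active in T lineage cells, and are annotated Sf3b1 mutation. Age and sex of the mice, and whether each library stands for a separate animal, are not given in the labels, so the spread that p-values rest on may be technical. Library totals ran from 33633196 to 43928723 counts. Gene counts do not separate the K700E allele from the normal one, so Sf3b1, at 592.5 to 711.6 CPM over the 6 libraries, does not check the labels.

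MHC class II molecules are pairs of an α and a β chain that show peptides from engulfed proteins to CD4+ T cells. In the mouse they are made mainly by B cells, dendritic cells and macrophages, all of which express the coactivator CIITA; mouse T cells make little or none. B cell identity is held by the transcription factors EBF1 and PAX5, which act on genes of the B cell receptor such as Cd79a. In a bulk library, fewer cells of a type and less RNA per cell cannot be told apart.

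Promoter stretches are shown for 2 class II chain genes and for a B cell receptor gene. Classical class II promoters carry an X box, bound by the RFX complex, followed by a Y box, bound by NF-Y, and CIITA docks on the assembled proteins. RefSeq promoter sequences (build GRCm38.p6) were at hand for 5 of the 10 genes: H2-Aa, Pax5, Cd79a, Ebf1 and Fcer2a. The stretches below are printed 5′ to 3′ on the gene's strand. In the class II stretches the capitals mark the X core GCAAC and the Y box CTGATTGG, and in the Cd79a stretch the match to CNCNNGGGA, a pattern of the kind EBF1 binds. H2-Eb1, which is not among the 10, is set beside H2-Aa because it has the same arrangement.
H2-Aa, chr17:34287852-34287919, minus strand: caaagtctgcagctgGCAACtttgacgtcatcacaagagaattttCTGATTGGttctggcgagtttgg
H2-Eb1, chr17:34305761-34305827, plus strand: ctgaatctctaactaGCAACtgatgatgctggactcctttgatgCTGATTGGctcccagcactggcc
Cd79a, chr7:24897286-24897364, plus strand: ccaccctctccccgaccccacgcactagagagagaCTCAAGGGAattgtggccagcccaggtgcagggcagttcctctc
In H2-Aa the X core and the Y box lay 25 bases apart, and in H2-Eb1 24 bases. GCAAC followed within 20 to 40 bases by CTGATTGG, on either strand, occurred in 32 of 32851 windows of 250 bases upstream of a RefSeq start (0.0974%). Of the class II genes looked up, H2-Aa, H2-Eb1, H2-Eb2 and H2-Oa held the pair. H2-DMa, H2-DMb1, H2-DMb2 and H2-Ob did not in these windows. Pax5, Cd79a, Ebf1 and Fcer2a did not hold the pair either. The looser pattern CNCNNGGGA, spelled to include the Cd79a site after its sequence was seen, occurred in 18.1% of windows. It was also found in the class II gene H2-DMb2 and in 1 of 3 Fcer2a windows, and not in those of Pax5, Ebf1 or the other class II genes looked up. These letters are matches in a sequence, and binding was not measured.

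The 10 genes were highest in 1 library, mutant 2, and most of them were next highest in mutant 3. In contrast, mutant 1 lay at or near the control levels, apart from Cd79a, which was higher, and Ebf1, which was lower. Mutant 2 was the highest of the 6 libraries for 10 of the 10 genes, against 14.4% of the 18323 genes that passed the count filter. It was more than 2-fold above every other library for 9 of the 10, Cd74 being the exception, against 0.846% of genes. Mutant 2 was followed by mutant 3 for 8 of the 10, against 3.53% of genes. These counts describe genes picked on the same values, and nothing is read from them. All 10 had a higher mean in mutant than in control libraries, as did 52.8% of all genes tested.

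**Figure D1:**
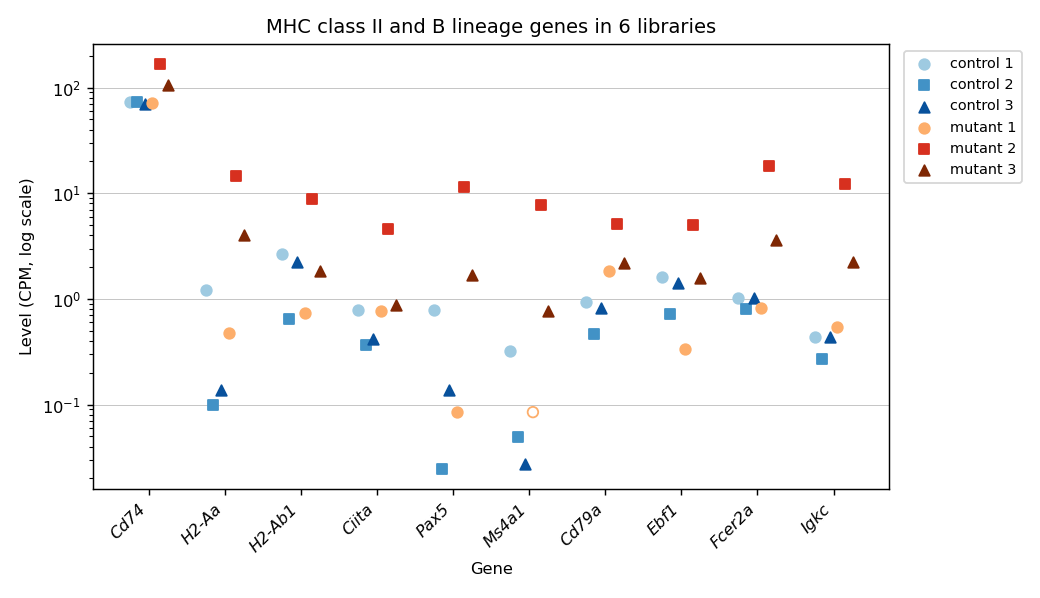
Level of each of the 10 genes in each library, in CPM on a log axis, with circles, squares and triangles for libraries 1, 2 and 3 and blue for control and orange to brown for mutant. The open circle marks Ms4a1 in mutant 1, where no read was counted, drawn at a fixed floor of 3 counts (0.0848 CPM). Mutant 2 is the highest point for every gene.

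Cd74 encodes the invariant chain, which guides class II molecules to the compartment where peptides are loaded. Its estimated counts were 2490, 2962 and 2540 in control 1, 2 and 3 and 2536, 5878 and 3883 in mutant 1, 2 and 3. In CPM, counts scaled to a common library size, these were 72.3, 72.7 and 69.9 CPM in control libraries and 71.7, 166 and 105 CPM in the mutants. The 3 controls and mutant 1 thus lay within a few CPM of each other, with mutant 2 and mutant 3 above them. The mean was 71.7 ± 1.505 CPM in control libraries and 115 ± 48.0 CPM in the mutants (SD, n = 3).

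H2-Aa encodes the α chain of the class II molecule I-A. Its counts were 42, 4 and 5 in control and 17, 519 and 149 in mutant libraries, or 1.22, 0.0982 and 0.138 CPM and 0.480, 14.7 and 4.05 CPM. Mutant 2 was 30.3-fold and mutant 3 8.34-fold above the control mean, and mutant 1 lay inside the control range. H2-Ab1 encodes the β chain that pairs with it. Its counts were 92, 26 and 81 in control and 26, 312 and 68 in mutant libraries. For H2-Ab1 only mutant 2 stood above the controls: mutant 3, at 1.85 CPM, equalled the control mean of 1.85 ± 1.07 CPM (SD, n = 3). The 2 chains of one molecule therefore differed in mutant 3. Ciita, the coactivator of class II genes, had 27, 15 and 15 counts in control and 27, 161 and 32 in mutant libraries. At 4.56 CPM mutant 2 was 8.74-fold above the Ciita control mean of 0.522 ± 0.228 CPM (SD, n = 3), while mutant 3 was at 0.869 and control 1 at 0.784 CPM.

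Among the B lineage factors, Pax5 counts were 27, 1 and 5 in control and 3, 406 and 62 in mutant libraries. The exact 95% Poisson interval, which covers counting error only, ran from 367 to 447 counts of Pax5 in mutant 2 and from 47.5 to 79.5 in mutant 3. Control 1, with an interval from 17.8 to 39.3, was below both and above the other controls. Ebf1, the factor that acts with and upstream of Pax5, had 55, 29 and 51 counts in control and 12, 176 and 58 in mutant libraries. Only mutant 2 was apart for Ebf1, at 4.98 CPM; mutant 3, at 1.58 CPM, lay between control 3 (1.40) and control 1 (1.60), and mutant 1 (0.339) was the lowest library.

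Ms4a1 encodes CD20, a surface protein of mature B cells. Its counts were 11, 2 and 1 in control and 0, 271 and 28 in mutant libraries. For the count of 0 in mutant 1 the exact 95% Poisson interval reached 0.104 CPM, and the floor used to draw it was 0.0848 CPM (3 counts). Mutant 2 was 58.1-fold above the control mean. That mean rests mainly on control 1, since the other controls had fewer than 3 counts; without control 1 the log2 difference between groups was 6.05, against 4.42 with it. Fcer2a encodes CD23, the low-affinity IgE receptor of follicular B cells. Its counts were 35, 33 and 37 in control and 29, 636 and 134 in mutant libraries. The 3 controls and mutant 1 lay between 0.810 and 1.02 CPM for Fcer2a, with mutant 3 at 3.64 and mutant 2 at 18.0 CPM.

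Cd79a encodes the signalling chain Igα of the B cell receptor. Its counts were 32, 19 and 30 in control and 65, 182 and 81 in mutant libraries. Igkc, the constant segment of the κ light chain, had 15, 11 and 16 counts in control and 19, 431 and 83 in mutant libraries. In these 2 genes every mutant library was above every control library, which was so for 6.60% of all genes tested (14.1% in either direction). For Igkc the margin of mutant 1 over the highest control was small, at 0.537 against 0.441 CPM. For Cd79a mutant 1 was at 1.84 CPM against 0.929 CPM in control 1.

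Levels can be compared between genes per length of transcript, here the CPM per kilobase of exon in the GENCODE M21 annotation, which covers all 10 genes but is not the annotation the reads were counted on. In the control mean Cd74 was at 42.7 CPM per kb, and the next genes were H2-Ab1 at 0.719 and Igkc at 0.718. Ms4a1 was the lowest at 0.0213. In mutant 2 Cd74 was at 99.2 CPM per kb, Igkc at 22.9 and Fcer2a at 5.83. H2-Aa, Cd79a and H2-Ab1 followed at 3.87, 3.54 and 3.44, and Ciita was the lowest at 0.478. The order thus changed below Cd74, with Igkc closer to it in mutant 2 than in the controls.

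The excess over the control mean was then compared between mutant 2 and mutant 3, gene by gene. Mutant 3 held 35.7% of the mutant 2 excess for Cd74, 33.1% for Cd79a and 25.1% for H2-Aa. It held 15.8% for both Fcer2a and Igkc, 12.2% for Pax5, 9.02% for Ebf1, 8.61% for Ciita and 8.33% for Ms4a1. For H2-Ab1 the share was 0.0107%. These shares ran from 0.0107% to 35.7%, and the differences between them were not tested. For H2-Ab1 and Ebf1 mutant 3 lay inside the control range, so their shares are within the spread of the controls.

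**Figure D2:**
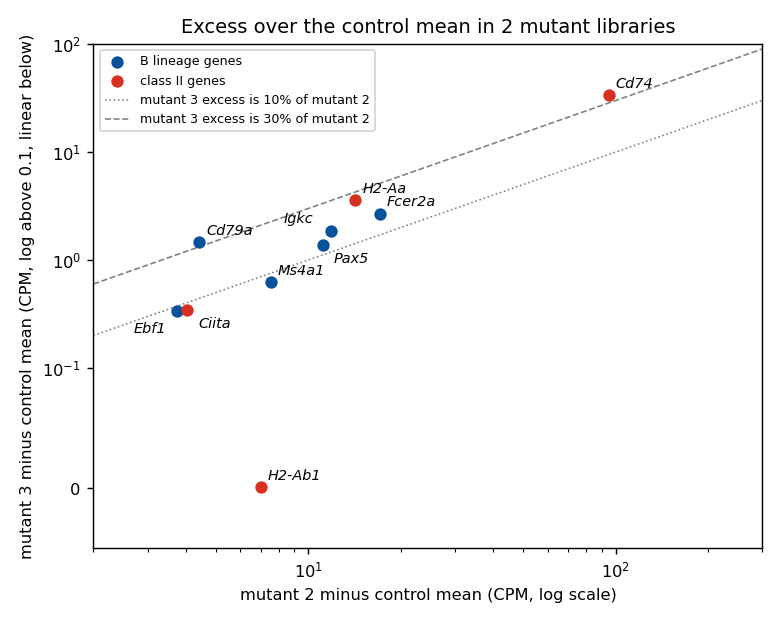
For each of the 10 genes, mutant 2 minus the control mean (x axis, CPM, log scale) against mutant 3 minus the control mean (y axis, CPM, logarithmic above 0.1 and linear below), B lineage genes in blue and class II genes in red. Dotted and dashed lines mark 10% and 30%; H2-Aa, Fcer2a, Igkc and Pax5 lie between them, Cd79a and Cd74 above the upper one, and H2-Ab1 is near 0 for mutant 3.

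Of the mutant libraries, leaving out mutant 2 gave the lowest group difference for each of the 10 genes. On the log2 scale, mutant minus control, H2-Aa was at 3.74 with all libraries and 2.26 without mutant 2, Pax5 at 3.83 and 1.53, and Igkc at 3.70 and 1.89. Ms4a1 was at 4.42 and 1.57, Fcer2a at 2.98 and 1.25, Cd79a at 2.05 and 1.47, Ciita at 1.98 and 0.67, and Cd74 at 0.68 and 0.33. H2-Ab1 and Ebf1 changed sign, from 1.05 to -0.49 and from 0.90 to -0.34. Without mutant 2, 8 of the 10 genes had the higher mean in mutant libraries, and with mutant 2 and mutant 3 both left out, 4 of 10. The share of all genes was not counted with these libraries left out. Leaving out control 1, the highest control for several of the genes, also moved single values by over 1.5 times: the H2-Aa difference became 5.73 and that of Pax5 5.74. Without control 2 the H2-Ab1 difference was 0.63. Without mutant 1 the Ebf1 difference was 1.42.

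**Figure D3:**
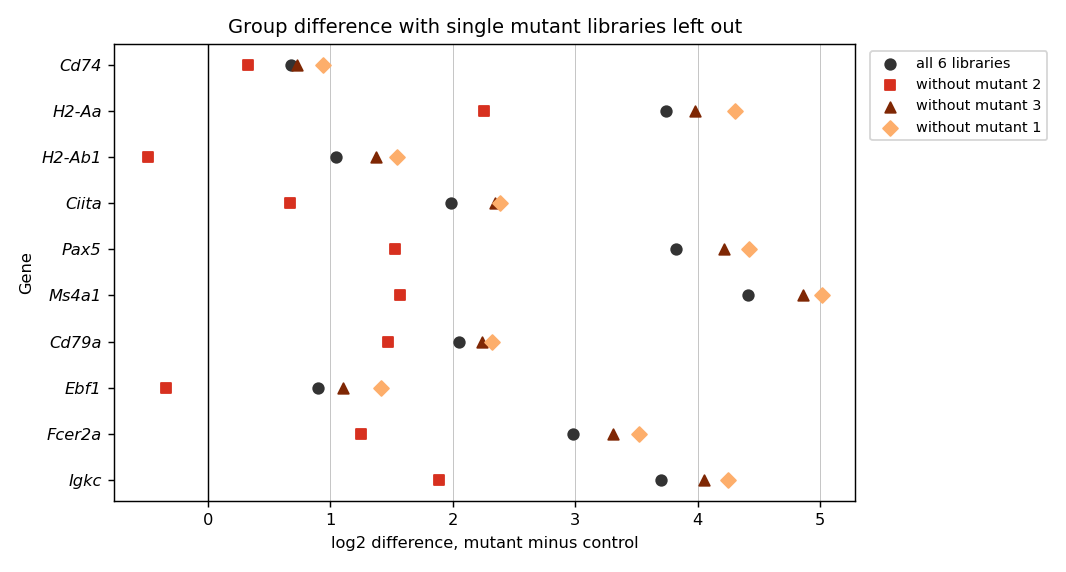
log2 difference of each gene, mutant minus control (x axis), with all 6 libraries (black circles) and with mutant 1, 2 or 3 left out (diamonds, squares, triangles). The red squares, without mutant 2, are the lowest value for every gene, and H2-Ab1 and Ebf1 cross 0.

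Genes of the same pathways that were not among the 10 were read next, from lists drawn up with results of these data known. In a fit over all 18323 genes, 0 genes (0.00%) passed an adjusted p of 0.05 by edgeR's quasi-likelihood test, and 1396 (7.62%) had an unadjusted p under 0.05. By limma-voom 0 passed, with 1299 (7.09%) at an unadjusted p under 0.05. DESeq2 called 99 of the 15628 genes to which it gave an adjusted p (0.633%).

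The 7 other class II chain and loading genes split into a set that was high in mutant 2 and a set that was high in mutant 1. By edgeR's quasi-likelihood test 0 of 7 passed, 2 had an unadjusted p under 0.05, and DESeq2 called 0. Their median log2 change was 1.00, against 0.02 over all genes. H2-Eb1, the β chain of the class II molecule I-E, was at 3.89, 1.35 and 2.67 CPM in control libraries and 1.30, 10.6 and 3.83 CPM in the mutants. Like H2-Aa and H2-Ab1 it was highest in mutant 2, and without that library its log2 change of 1.00 ± 0.72 (SE) became -0.02. H2-DMb1 and H2-DMb2, near-identical β chain genes of the peptide editor H2-DM whose reads may be divided between them, were also highest in mutant 2. There they were at 0.935 and 4.62 CPM. H2-DMa, the α chain of the same editor, was instead at 10.6, 7.61 and 10.6 CPM in control libraries and 23.2, 10.8 and 6.28 CPM in the mutants, highest in mutant 1. Its log2 change was 0.48 ± 0.44 (SE), and -0.16 without mutant 1. H2-Oa, the α chain of the H2-O molecule that restrains H2-DM, had 11.9 CPM in mutant 1 and from 4.05 to 7.90 CPM in the other libraries. H2-Eb2 was likewise highest in mutant 1, at 5.60 CPM against 2.04 in mutant 2 and up to 1.42 in control. H2-Ob, the partner of H2-Oa, ranged from 0.737 to 4.25 CPM with the groups overlapping.

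The factors that bind class II promoters were present in all 6 libraries, including control 2 and control 3, where H2-Aa had 4 and 5 counts. Creb1, Nfya and Nfyb were at 209 ± 14.7, 83.6 ± 11.1 and 69.0 ± 4.57 CPM in control libraries and at 190 ± 63.8, 81.2 ± 11.7 and 61.1 ± 11.3 CPM in the mutants (SD, n = 3). None of the 7 genes passed edgeR's test, 1 had an unadjusted p under 0.05, and DESeq2 called 0. That gene, Rfx5, a subunit of the RFX complex, was at 39.5, 40.5 and 38.2 CPM in control libraries and 78.2, 55.0 and 41.7 CPM in the mutants. Every mutant library was above every control one for Rfx5, as was so for 6.60% of all genes tested. The highest Rfx5 value was in mutant 1 (log2 change 0.56 ± 0.22, SE, edgeR adjusted p = 0.645, and 0.31 without mutant 1). Rfxank, the partner of Rfx5, was also highest in mutant 1, at 26.3 CPM against 13.8 to 14.8 CPM in control.

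Of 7 genes for cleaving the invariant chain and turning over class II molecules, 0 passed edgeR's test, 0 had an unadjusted p under 0.05 and DESeq2 called 0. Sppl2a and Ifi30 were at 117 ± 6.94 and 45.4 ± 5.61 CPM in control libraries and 114 ± 7.18 and 39.4 ± 7.19 CPM in the mutants (SD, n = 3). Ctss, the protease cathepsin S that trims the invariant chain, had 61.8, 76.1 and 64.0 CPM in control libraries and 166, 72.8 and 56.9 CPM in the mutants. It too was apart in mutant 1, and its log2 change of 0.55 ± 0.37 (SE) was -0.04 without that library. In the route by which IFNγ induces Ciita, 0 of 8 genes passed edgeR's test, 1 had an unadjusted p under 0.05 and DESeq2 called 0. Jak1 and Jak2, kinases of the IFNγ receptor, were at 390 ± 34.6 and 235 ± 8.68 CPM in control libraries and 498 ± 150 and 287 ± 2.41 CPM in the mutants (SD, n = 3). Ifng itself was at 1.34, 0.196 and 0.0275 CPM in control libraries and 0.283, 3.002 and 0.679 CPM in the mutants, highest in mutant 2.

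**Figure D4:**
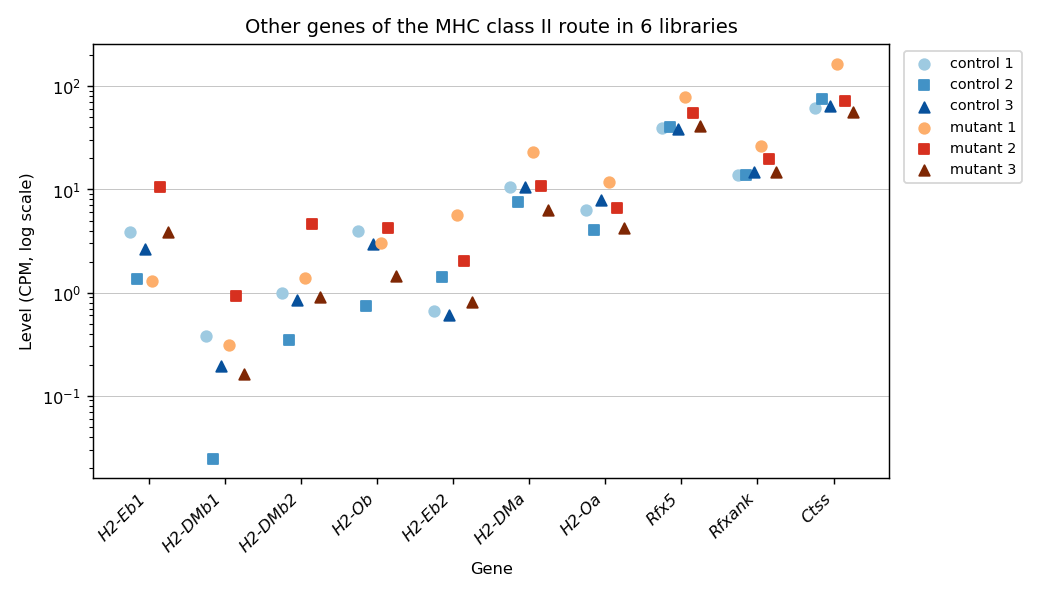
Level of 10 other genes of the class II route in each library (CPM, log axis), with the same marks as in the plot of the first 10 genes. H2-Eb1, H2-DMb1 and H2-DMb2 peak in mutant 2, and H2-Eb2, H2-DMa, H2-Oa, Rfx5, Rfxank and Ctss in mutant 1.

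Of 20 other B lineage genes, 17 passed the count filter; Cd22, Fcrla and Vpreb3 did not. By edgeR's quasi-likelihood test 0 of 17 passed, and 8 were higher and 1 lower in mutant libraries at an unadjusted p under 0.05. The median log2 change was 1.12, against 0.02 over all genes. DESeq2 called 2: Syk, a kinase of the B cell receptor, higher (adjusted p = 0.049), and Tnfrsf13b, which encodes the receptor TACI, lower (adjusted p = 0.0186). Leaving out single libraries, DESeq2 called between 0 (without control 1 or control 3) and 6 (without mutant 1) of the list. Higher means in mutant libraries were seen in 14 of the 17 genes, against 52.8% of all genes tested. The number was 13 without mutant 2 and 6 with mutant 2 and mutant 3 both left out, where the share of all genes was not counted.

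The most abundant genes of that list did not follow the 10 genes. Tnfrsf13b was at 242, 160 and 186 CPM in control libraries and 103, 118 and 94.5 CPM in the mutants, with every mutant below every control library. The groups did not overlap, in either direction, for 14.1% of all genes tested. The log2 change of Tnfrsf13b was -0.90 ± 0.19 (SE, edgeR adjusted p = 0.598). Cd72 and Fcrl1 were at 36.7 ± 4.51 and 28.5 ± 7.10 CPM in control libraries and 36.0 ± 4.37 and 26.5 ± 13.6 CPM in the mutants (SD, n = 3), with the groups overlapping. In mutant 1, where Ms4a1 was not detected, Fcrl1 was at 10.8 CPM, its lowest level, and in mutant 2 at 34.6 CPM, below control 2 (36.4).

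Other genes of that list, singled out after their values were seen, were highest in mutant 2. Bcl11a, a B lineage transcription factor, was at 4.47 CPM in mutant 2 and at most 0.462 CPM elsewhere. Cd22, an inhibitory coreceptor, had 113 counts in mutant 2, 13.9 in mutant 3 and at most 9 in the other 4 libraries. Blk, a B cell kinase of the Src family, was above every control in all 3 mutant libraries, as were 6.60% of all genes tested. It was at 0.537, 1.42 and 0.543 CPM against at most 0.0871 CPM (log2 change 3.85 ± 0.82, SE, edgeR adjusted p = 0.598). A further pair was highest in mutant 1: Pou2af1, a coactivator of octamer factors, at 16.1 CPM against 7.39 in mutant 2 (log2 change 1.32 ± 0.48, SE, and 0.64 without mutant 1; edgeR adjusted p = 0.644), and Bank1, a scaffold of B cell signalling, at 2.40 against 2.18 CPM.

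Apart from Ighg3, immunoglobulin genes fell into a part found in every library and a part found mainly in mutant 2. Of the 9 heavy and λ chain constant genes in the table, 4 passed the count filter and 0 passed edgeR's test; 1 of them, Ighg3, was lower at an unadjusted p under 0.05, and DESeq2 called 0. Ighm, the constant segment of IgM, was at 146 ± 11.9 CPM in control libraries and 148 ± 31.8 CPM in the mutants (SD, n = 3), far above Igkc and with 4228 counts even in mutant 1. Ighd, which overlaps the same primary transcript, was at 3.47 ± 0.908 and 4.58 ± 1.02 CPM, and Igha at 2.07 ± 2.83 and 2.36 ± 1.83 CPM (SD, n = 3). Igha was highest in control 1, with 183 counts, against 158 in mutant 2 and 4 in control 3. In the controls Ighm thus had from 5243 to 5568 counts where Igkc had from 11 to 16. Ighg1 had 168 counts in mutant 2, 7 in mutant 3 and at most 6 elsewhere, and Ighg2b 85 in mutant 2, 10 in mutant 3 and at most 7 elsewhere. Iglc3, a λ light chain segment, had 16 and 5 counts in mutant 2 and mutant 3 and 0 in the other 4 libraries. Ighg3 went the other way, with 31, 15 and 14 counts in control and 1, 6 and 5 in mutant libraries.

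Markers of other cell types were summed per library, to show which of them moved with the 10 genes. The 6 B lineage genes among the 10 summed to 5.08, 2.33 and 3.86 CPM in control libraries and 3.62, 59.5 and 12.1 CPM in the mutants. The 13 T cell identity genes, led by Cd4, Thy1 and Lck, summed to between 2724 and 3672 CPM in control, and to 4486, 3181 and 2951 CPM in the mutants. The labelled cell type was thus present in every library, and the sum in mutant 2 and mutant 3 lay inside the control range.

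Plasma cell genes were not high in mutant 2: the 4 in the table, led by Sdc1, Derl3 and Jchain, summed to between 3.05 and 3.87 CPM over the 6 libraries, though Mzb1 had its only counts above 1 there (14.8). Of the macrophage and monocyte list, 8 of 12 genes were in the table, led by Cd68, Csf1r and Adgre1. They summed to between 2.04 and 3.69 CPM, with mutant 2 at 3.03, and Fcgr1 and Cd14 had at most 4 counts in any library. The 3 neutrophil genes in the table summed to at most 8 counts. The 6 erythroid genes, led by Alas2, summed to between 0.606 and 2.07 CPM, highest in mutant 2. Few of these genes passed the count filter (2 plasma cell, 3 macrophage and monocyte, 1 erythroid and 0 neutrophil genes), and edgeR and DESeq2 called 0 of them.

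Dendritic cell genes were mixed. The 7 in the table summed to 30.3 to 37.0 CPM in control libraries and 27.8, 56.3 and 30.9 CPM in the mutants, and of the 6 that passed the count filter edgeR and DESeq2 called 0. Zbtb46 and Wdfy4 made most of the difference, at 20.2 and 12.9 CPM in mutant 2 against at most 12.4 and 3.86 CPM in the other libraries. Cst3 was at 14.6 to 19.6 CPM throughout. Flt3 was at 1.67 CPM in mutant 2, whereas Itgax, the integrin CD11c that defines dendritic cells, had 4 counts there. Batf3 was lower in the mutant mean, at 6.79, 0.393 and 3.17 CPM in control libraries and 0.0565, 1.42 and 0.571 CPM in the mutants. Its log2 change was -2.33 ± 1.110 (SE). Xcr1 was highest in mutant 3, at 1.005 CPM against 0.453 CPM in mutant 2. CD8 T cell genes had their highest values in control 1, at 24.3 CPM for Cd8a and 16.0 CPM for Cd8b1, with mutant 2 next at 8.95 and 8.33 CPM. Only 2 natural killer and CD8 genes passed the count filter, of which edgeR and DESeq2 called 0, and Ncr1 and Klrb1c had at most 27 counts. The part of these other cell types in the levels of the 10 genes was not tested.

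**Figure D5:**
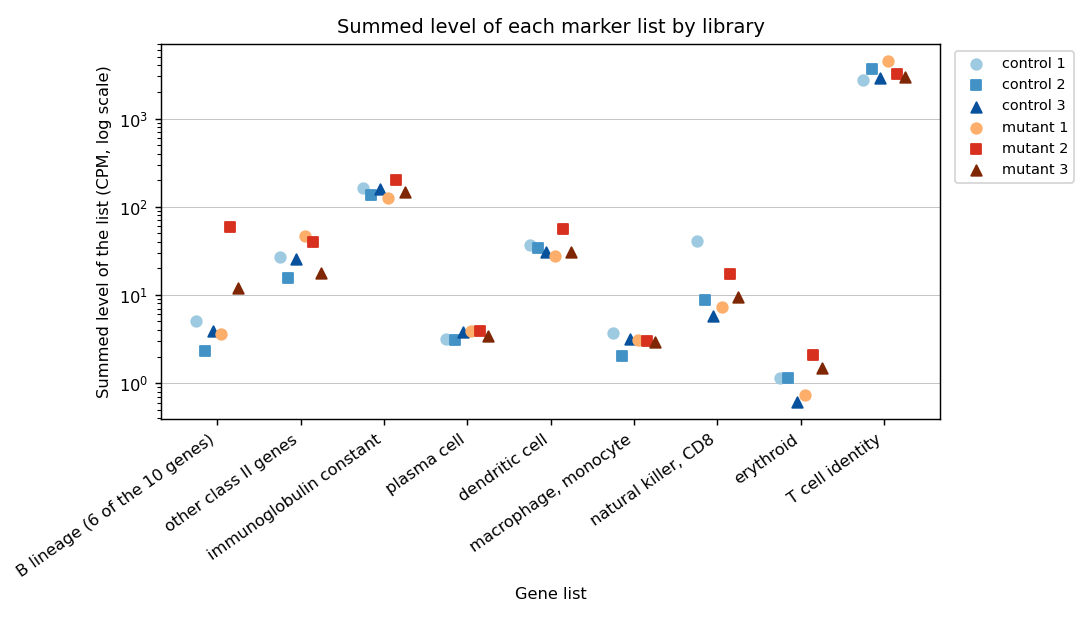
Summed CPM of each marker list in each library (log axis), with the same marks as in the plot of the first 10 genes. The B lineage sum of mutant 2 is 59.5 CPM against at most 5.08 CPM in the controls, while the T cell identity, macrophage and plasma cell sums of mutant 2 lie near or inside the control range.

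The genes of the whole table most like the 10 were found by Pearson's r over the 6 libraries, between log2 CPM and the mean profile of the 10 genes. Mutant 2 dominates that profile, at 2.87 on the log2 scale against 0.81 in mutant 3 and -0.11 in the next library, control 1, so r is given as a description only. The 10 most alike outside the lists were ENSMUSG00000120666, E330020D12Rik, Fos, Rnf24, Gm45548, Metap1d, ENSMUSG00000121053, Inka1, Ttbk1 and Dock9, with r from 0.973 to 0.989. These were mostly small shifts: Fos, the immediate early transcription factor, was at 1.31, 1.13 and 1.21 CPM in control libraries and 1.10, 2.10 and 1.44 CPM in the mutants. Among the 200 genes most alike (1.09% of those tested) were 3 of 17 other B lineage genes (Bcl11a and Cd180 among them), 1 of 7 class II genes (H2-Eb1) and 1 of 6 dendritic cell genes (Flt3).

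Mutant 2 also stood apart in genes outside these pathways. Of the 155 genes more than 2-fold above every other library there, 9 were among the 10, 6 were other B lineage genes, 3 were class II chain or loading genes, 2 were dendritic cell genes, 1 was Ifng and 134 were on no list. The furthest apart, named after its value was seen, was the unnamed gene model Gm42031, at 158 CPM against at most 5.14 CPM elsewhere. Ms4a1 came next by that ratio and Bcl11a after it. The chemokine gene Ccl22 was at 64.3 CPM in mutant 2 and at most 9.23 CPM in the other libraries, and Gzmb, which encodes granzyme B, at 10.7 against at most 2.64 CPM.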

How the data were processed

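The members and all gene lists were chosen with earlier results of these data known. Total RNA (1.0 µg a library) was depleted of ribosomal RNA before sequencing, per the labels' protocols. STAR 2.7.8a and Partek, and the builds GRCm39 and mm39, are named per the submitters' processing notes; no source used here gives their roles, the annotation or strand use, so overlapping genes may share reads. Deposited were the authors' estimated counts per gene, not normalized. Totals ran from 33633196 to 43928723. Rows without a symbol (863) or repeating one (32) were named by their identifier. Counts were rounded, since the values turned out to be estimated and not whole as the design had assumed. In R 4.3.3, filterByExpr (minimum count 10) kept 18323 genes, all 10 members among them, with 99.92% of the counts. CPM used TMM-scaled totals; log2 CPM a prior count of 2. edgeR 4.0.16 compared all 6 libraries by its quasi-likelihood test, robust and without covariates, two-sided, with Benjamini-Hochberg adjustment over all genes (threshold 0.05). The SE is the log2 change over the square root of F. DESeq2 1.42.0, limma-voom (limma 3.58.1), other scalings and filters, a replicate block and single libraries left out were alternatives. From each list the 3 genes with the highest mean CPM were named, as none passed, except items that are not reported here; other genes were named after their values were seen. Libraries of a group differed beyond counting error in every pair (chi-square over its degrees of freedom 18.7 to 177).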

Additional observations from a re-analysis of the deposited data

How the results depend on the processing

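In the main fit, edgeR's count past the threshold was 0 of 18323 genes tested. It was also 0 under each other scaling, each filter, the stricter threshold of 0.01 and each library left out (range 0 to 0). The number of genes tested in these settings ran from 14820 (CPM filter) to 26415 (no count filter). By limma-voom the count was 0 too. DESeq2 called 99 (51 higher, 48 lower), 2 of them other B lineage genes and 0 other class II genes (1 without mutant 3, 0 without any other library); its total ran from 16 without control 1 to 374 without mutant 3. With the replicate number as a replicate block, 0 genes passed as well. Between same-numbered libraries, deviations from the group mean had r of -0.048, -0.067 and -0.028 across genes. These values cannot show whether equal numbers mark a shared animal, litter or day. Under other scalings the median log2 change of all genes stayed between 0.02 and 0.06. Of 110 values of the 10 genes under alternatives, 105 moved by less than 1 SD between replicates. The other 5, for H2-Ab1, Ciita, Ms4a1, Fcer2a and Igkc, were those without mutant 2. That SD includes the spread made by mutant 2, so large shifts can stay within it. Ebf1, at 0.895, was at -0.343 without mutant 2, and H2-Aa, at 3.74, was at 5.73 without control 1. Among other named genes, leaving out libraries gave log2 changes from -0.16 (without mutant 1) to 0.82 for H2-DMa, from -0.041 (without mutant 1) to 0.821 for Ctss and from -0.016 (without mutant 2) to 1.47 for H2-Eb1. For Ighm, at 0.02, it was -0.0019 by DESeq2, -0.0024 by limma-voom and -0.0033 with the block; it was -0.053 without control 2, and over the libraries left out it ran from -0.14 (without mutant 2) to 0.16 (without mutant 1); the cause was not tested. The counts of higher means without single libraries, or without mutant 2 and mutant 3 together, were added after seeing the data. At these depths a level under about 0.09 CPM (3 counts) cannot be told from 0.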

Other observations

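Of the 134 genes on no list that were more than 2-fold above every other library in mutant 2, 7 are given here. They were picked after their values were seen. Ikzf2, which encodes the transcription factor Helios, was at 352 CPM in mutant 2 and at most 136 CPM in the other 5 libraries. Cd80, a costimulatory ligand, was at 179 CPM against at most 73.9 CPM, and Penk, which encodes an enkephalin precursor, at 57.7 against at most 20.1 CPM. The cytokine gene Il13 was at 5.32 CPM against at most 1.06 CPM. The γδ T cell receptor constant segments Trgc1, Trgc2 and Trgc4 were at 2.80, 6.12 and 6.68 CPM in mutant 2, against at most 0.784, 2.21 and 1.92 CPM in the other libraries. Reads may be divided between constant segments that are alike in sequence, which was not checked here. Mutant 3 lay inside the control range for 6 of these 7 genes, and was at 11.7 CPM against at most 11.1 CPM in control for Penk. The part of these differences in the levels of the 10 genes was not tested.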
